A study of Mus musculus with 12 samples.

Results

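The response of macrophages to lipopolysaccharide (LPS) plus interferon-gamma was measured by RNA sequencing in bone marrow-derived macrophages of the genotype RankCre-Regnaes3cKO, a conditional knockout of Regnase-3 with the Cre driver RankCre (cKO below; Regnaes3 is the spelling of the labels). All genes with at least 10 counts in at least 3 of the 6 cKO libraries were described, which were 14407 of the 56980 genes in the table. Of them, 12276 had the minimum in all 6 libraries, 288 only in stimulated and 685 only in unstimulated libraries. Exactly 3 libraries reached it for 1138 genes, just inside the rule, and exactly 2 for 547 genes, just outside.

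The 6 libraries were 3 of unstimulated cKO macrophages (cKO_M0) and 3 of cKO macrophages given LPS at 100 ng/ml with interferon-gamma at 10 ng/ml (cKO_M1). Wild-type macrophages (WT_M0 and WT_M1, 3 libraries each, the same stimulation) served to set the cKO response beside another, and the comparisons within the genotypes share no library. All cells had been grown from bone marrow in L929-conditioned medium for 7 days. The controls are called wildtype with no mention of Cre. The sources used here do not give the length of stimulation or the age and sex of the mice. Nor do they say whether the 3 libraries of a group are biological replicates, so p-values measure only the spread between these libraries, which may be technical.

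LPS, a component of the outer membrane of Gram-negative bacteria, is sensed by Toll-like receptor 4 and activates NF-kB, MAP kinases and IRF transcription factors, while interferon-gamma acts through JAK kinases and STAT transcription factors. Together they give the state called M1 or classical activation, known for nitric oxide and itaconate production, inflammatory cytokines, antigen presentation and glycolysis. Regnase-3, encoded by Zc3h12c, belongs to a family of CCCH zinc finger proteins whose best known member, Regnase-1 (Zc3h12a), degrades inflammatory mRNAs.

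The 6 cKO libraries held between 41873708 and 42197986 counts. On the first principal component over all 12 libraries, with 87.4% of the variance, every M1 library lay apart from every M0 library. Macrophage markers were high in every cKO library, at a summed 16900 to 18500 CPM in cKO_M0 and 15600 to 17600 CPM in cKO_M1 (CPM are counts per 1000000 counts of the library, scaled by TMM factors, which align the bulk of the genes between libraries). Replicate 1 of cKO_M0 stood apart from replicates 2 and 3: antiviral interferon-stimulated genes held 0.502% of its counts against 0.794% and 0.724%, and the immunoglobulin genes Igkc and Jchain were at 6.16 and 5.50 CPM in it, 0 to 0.156 CPM in the other cKO libraries and 1.98 to 7.59 CPM in WT_M0. Results that rest on it are given without it below.

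Zc3h12c, the targeted gene, was at 13.6, 18.4 and 14.7 CPM in cKO_M0 and 98.2, 104 and 127 CPM in cKO_M1. It rose in cKO with a log2 fold change of 2.81 ± 0.13 (SE; adjusted p = 1.52e-11, edgeR's quasi-likelihood test with Benjamini-Hochberg adjustment over the 14407 genes, as in all adjusted p below). WT means were 16.4 and 176 CPM, and the response was smaller in cKO than in WT by a log2 difference of -0.61 ± 0.17 (SE; adjusted p = 0.0366). That difference missed the threshold when any 1 of 9 libraries was left out (cKO_M0 replicate 2 or 3, cKO_M1 replicate 7 or 8, WT_M0 replicate 4, 5 or 6, WT_M1 replicate 10 or 11), with an adjusted p between 0.0506 and 0.0994. The counts are per gene and the sources used here do not name the exons removed, so these values do not check the deletion, and cKO below means the libraries labelled so. The related Zc3h12a rose from 35.6, 45 and 43.1 CPM to 195, 217 and 235 CPM. Zc3h12d had a log2 fold change of 0.36 (adjusted p = 0.00174) that turned to -0.18 when libraries were scaled by their totals, and Zc3h12b did not reach the count minimum. Tnfrsf11a, which encodes RANK, was at 84.5, 96.9 and 135 CPM in cKO_M0 and 108, 121 and 182 CPM in cKO_M1. Its groups overlapped and it did not pass (log2 fold change 0.38, adjusted p = 0.104), though it did without cKO_M0 replicate 3 (0.60, adjusted p = 0.0182) or without cKO_M1 replicate 7 (0.54, adjusted p = 0.0296); with library totals its value was -0.16.

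Stimulation moved most of the transcriptome. Of the 14407 genes, 10384 (72.1%) passed at an adjusted p under 0.05 between cKO_M1 and cKO_M0, 5081 (35.3%) higher and 5303 (36.8%) lower. Tested against a margin of 2-fold, 3954 genes (27.4%) passed, 1794 of them higher (12.5%) and 2160 lower (15%). The libraries of the states did not overlap for 10686 genes (74.2%). Among the genes called, 354 were at least 16-fold higher and 431 at least 16-fold lower. The genes higher past 2-fold held 12.7% ± 0.37 of the counts in cKO_M0 and 40.3% ± 0.462 in cKO_M1 (SD, n = 3), and those lower held 11.1% ± 0.141 and 1.81% ± 0.0274, which describes the libraries that chose them. In RNA from whole cultures, fewer cells of a type and less RNA per cell cannot be told apart.

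The split into higher and lower depended on the scaling. With TMM the median log2 fold change of all members was -0.03, and 48.9% of the genes called were higher. With library totals alone the median was -0.57 and 24.1% of the genes called were higher (2702 higher and 8497 lower, or 1129 and 3754 past 2-fold). Upper-quartile factors gave a median of -0.16 and 42.3% higher, and DESeq2 gave -0.02 and 49.6%. Directions below are on the TMM scale, that is, relative to the bulk of the genes, and a turn with library totals is given where it occurs.

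**Figure D1:**
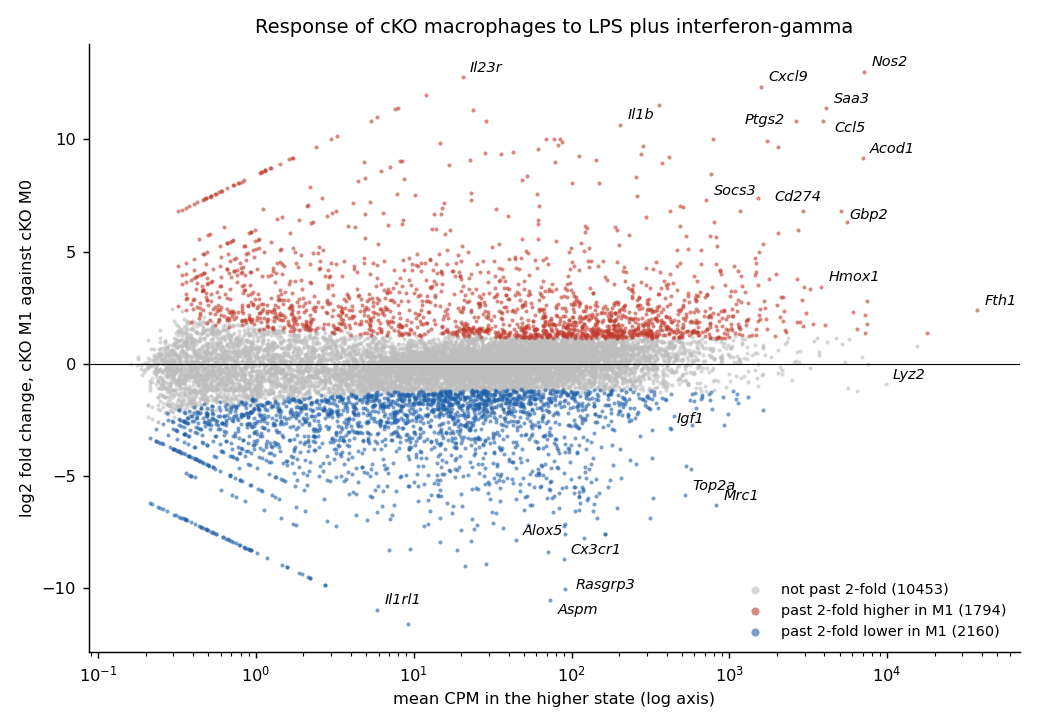
Log2 fold change of each of the 14407 genes between cKO_M1 and cKO_M0 (vertical) against its mean CPM in the higher state (horizontal, log axis), 1 point per gene. Past the 2-fold margin 1794 genes lie above (red) and 2160 below (blue) the line at 0, and the straight rows of points at the edges are genes with no or few counts in one state, whose fitted value depends on the prior count.

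Some of the steepest rises were in enzymes that mark the M1 state. Nos2, the inducible nitric oxide synthase, was at 0.678, 1.52 and 0.371 CPM in cKO_M0 and at 6294, 7456 and 7675 CPM in cKO_M1 (log2 fold change 13.02 ± 0.33 SE, adjusted p = 2.88e-14). Acod1, whose enzyme makes itaconate, went from 8.85, 14.5 and 13.3 CPM to 6989, 7349.6 and 6682 CPM (9.16 ± 0.18 SE, adjusted p = 3.21e-15). In both genes every stimulated library was far above every unstimulated one. Cxcl9, Serpina3g, Saa3, Ptgs2 and Ccl5 had log2 fold changes of 12.35, 11.54, 11.39, 10.83 and 10.82. Of the members, 46 had no count in any cKO_M0 library and 62 none in any cKO_M1 library, for which a fold is a lower bound against 3 counts per library. Il23r, a subunit of the interleukin-23 receptor, was at least 351-fold higher in cKO_M1, Enpp2 at least 205-fold, Ubd at least 136-fold, Csf3 (G-CSF) at least 129-fold and Heatr9 at least 101-fold. In the other direction, Cd300lg was at least 109-fold lower and Il1rl1, the interleukin-33 receptor, at least 69.0-fold lower.

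Levels can be compared between genes once counts are divided by gene length and scaled to the same total in each library (TPM), and on this scale stimulation changed which genes led. In cKO_M0 the first was Lyz2, lysozyme, at a mean of 30644, and in cKO_M1 it was Fth1, the ferritin heavy chain, at 29833 against 8482 in cKO_M0. B2m, the light chain of MHC class I, went from 7619 to 23478 and Psap, a lysosomal sphingolipid activator, from 10296 to 18266. Ccl5 and Acod1 were at 9.36 and 19.2 in cKO_M0 and at 11432 and 7432 in cKO_M1, where they were the fifth and the tenth most abundant genes.

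Enzymes of arginine, nitric oxide, itaconate and tryptophan metabolism were higher in 12 of 16 cases and lower in 3, with a median log2 fold change of 4.10 (all members -0.03). Over all members 35.3% were higher and 36.8% lower, and the counts of this and the following lists stand beside those shares. The arginine transporter Slc7a2 rose from 3.8, 3.26 and 4.4 CPM to 401, 437 and 432 CPM, and Ass1, which rebuilds arginine from citrulline, from 13.6, 19.7 and 17.1 CPM to 222, 220 and 210 CPM. Arg1, the arginase used as a marker of alternative activation, also rose, from 0.155, 0.176 and 0.156 CPM to 54.1, 49 and 42.2 CPM (8.20 ± 0.40 SE). The second arginase gene, Arg2, rose too (5.35). In cKO_M1 the means on the length-scaled scale were 4489.5 for Nos2 and 60.4 for Arg1. The tryptophan-degrading genes Ido1 (log2 fold change 7.59), Kynu (6.58) and Ido2 (4.50) rose as well. Genes of polyamine synthesis divided, with Srm (-2.14) and Sms (-1.76) lower and Odc1 higher (0.69, or 0.15 with an adjusted p of 0.346 with library totals), and so did those of tetrahydrobiopterin synthesis, with Spr lower (-1.47) and Gch1 higher (1.27).

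**Figure D2:**
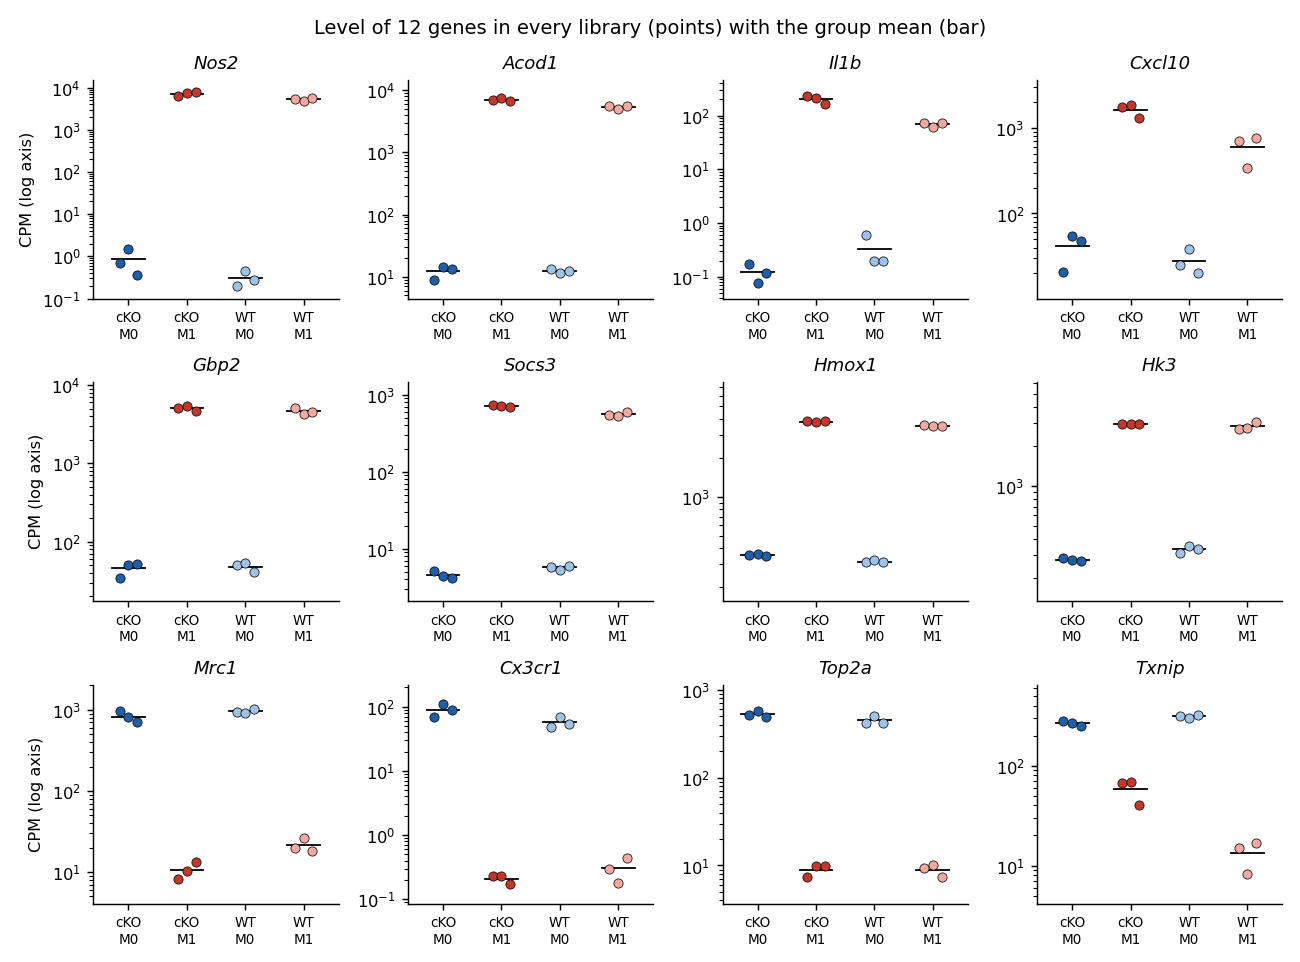
CPM (log axis) of 12 genes in every library of the 4 groups, as points, with the group mean as a bar. In each panel the 3 cKO_M0 points lie apart from the 3 cKO_M1 points, and Nos2 goes from 0.371 to 1.52 to 6294 to 7675 CPM.

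Genes known as targets of interferon-gamma rose together. All 18 guanylate-binding proteins (GBPs) and immunity-related GTPases among the members, which attack membranes around intracellular pathogens, rose under TMM, library totals, upper-quartile factors and DESeq2 (median log2 fold change 5.98, lowest 2.46 in Gbp9). Gbp2 was at 34.7, 51.1 and 51.8 CPM in cKO_M0 and 5144, 5429 and 4675 CPM in cKO_M1. Gbp4 went from a mean of 2.53 CPM to 2033 CPM and Iigp1 from 8.92 to 1512 CPM. The list held 0.0556% to 0.0846% of the counts of a cKO_M0 library and 1.19% to 1.38% of a cKO_M1 library, with no overlap (exact two-sided permutation p = 0.1, the smallest that 3 against 3 libraries allow).

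Of the STAT and IRF transcription factors, 10 of 15 rose and 3 fell (35.3% and 36.8% over all members). Irf1, a transcription factor induced by interferon, was at 45.1, 53.9 and 55.9 CPM before and 1135, 1095 and 982 CPM after stimulation (4.37 ± 0.11 SE, adjusted p = 2.91e-14). Irf7 (3.32), Irf8 (2.28), Stat3 (2.09) and Irf5 (1.48) rose, whereas Irf4, a factor of alternative activation, fell from 7.55, 5.41 and 6.33 CPM to 0.113, 0.51 and 0.396 CPM. Jak2, the kinase next to the interferon-gamma receptor, rose (2.93). Of the receptor chains Ifngr2 rose (0.84) while Ifngr1 fell (-0.92).

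Antiviral interferon-stimulated genes, the targets of type I interferon, rose in 39 of 40 cases (median 1.81). Rsad2 went from 75.4, 168 and 145 CPM to 1795, 1798 and 1763 CPM, Mx1 from 27.8, 62.9 and 54.1 to 701, 661 and 519 CPM, and Ifit1 from 56.3, 108 and 97 to 769, 784 and 624 CPM. In each of these genes cKO_M0 replicate 1 was the lowest library. Without it 39 of the 40 still passed as higher, with a median of 1.64. Ifit3b fell (-0.79; named after its value was seen), and it is a near copy of Ifit3, so the split of reads between them is uncertain. Ifnb1, interferon-beta itself, rose from 0, 0.0195 and 0 CPM to 0.567, 0.567 and 0.396 CPM (adjusted p = 4.45e-05).

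The promoters were searched for 5 motifs on both strands, in the 300 bases from 250 before to 50 after the start of each gene in RefSeq (build GRCm38.p6, while the counts were made on GRCm39), and 10010 members had an entry. The motifs were the interferon-stimulated response element (ISRE, GAAA and GAAA with any 2 bases between), the gamma-activated site (GAS, TTCNNNGAA), an NF-kB site (GGGAA and CC with any 3 bases between), the CCAAT box (CCAAT) and the TATA box (TATAAA). An ISRE match was present in 3.49% of all 27025 promoters, 3.39% of those of the members, 8.43% of those of genes past 2-fold higher in cKO_M1 and 2.28% of those past 2-fold lower. It was present in 10 of the 11 promoters of the GBP and GTPase list and in 16 of the 30 of the antiviral list. For GAS the shares in promoters of members, genes higher and genes lower were 6.89%, 8.59% and 6.90% (8.47% of all promoters), and for NF-kB 6.97%, 8.67% and 6.57% (5.67% of all). A TATA box was in 7.20%, 10.6% and 6.77% (14.2% of all), so whether the higher genes stand above or below the baseline depends on which of them is taken. A match describes letters and is not a measured site, and other forms of these sites were neither searched for nor marked. The 250 bases before the start of 4 genes that rose are shown so that the motifs and their spacing can be seen, with capitals for ISRE, GAS and NF-kB matches. Counted from the start site to the first base of the match, Gbp2 (chr3:142620413-142620662, plus strand) has an ISRE match at -59 and Cxcl10 (chr5:92348890-92349139, minus strand) an ISRE match at -213 and NF-kB matches at -159 and -103. Irf1 (chr11:53769764-53770013, plus strand) has a GAS match at -90 and Socs3 (chr11:117969367-117969616, minus strand) one at -154.
Gbp2: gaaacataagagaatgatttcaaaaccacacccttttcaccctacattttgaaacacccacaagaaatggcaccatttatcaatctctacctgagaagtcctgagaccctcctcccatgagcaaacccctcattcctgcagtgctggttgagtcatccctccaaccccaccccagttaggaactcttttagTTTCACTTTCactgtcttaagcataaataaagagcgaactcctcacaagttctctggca
Cxcl10: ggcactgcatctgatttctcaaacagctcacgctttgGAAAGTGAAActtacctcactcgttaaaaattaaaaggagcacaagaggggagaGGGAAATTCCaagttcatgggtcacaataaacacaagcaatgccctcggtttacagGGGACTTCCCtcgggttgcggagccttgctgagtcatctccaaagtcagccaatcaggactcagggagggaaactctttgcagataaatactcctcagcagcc
Irf1: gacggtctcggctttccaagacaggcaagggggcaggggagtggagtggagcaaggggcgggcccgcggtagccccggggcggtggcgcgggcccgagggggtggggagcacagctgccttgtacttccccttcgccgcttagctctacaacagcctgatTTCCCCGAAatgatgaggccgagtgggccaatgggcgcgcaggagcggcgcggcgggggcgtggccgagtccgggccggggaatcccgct
Socs3: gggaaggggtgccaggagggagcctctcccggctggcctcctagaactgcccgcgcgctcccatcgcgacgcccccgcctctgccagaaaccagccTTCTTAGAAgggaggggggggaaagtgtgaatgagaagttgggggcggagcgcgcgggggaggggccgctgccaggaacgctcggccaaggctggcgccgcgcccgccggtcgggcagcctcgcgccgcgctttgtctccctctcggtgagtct

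**Figure D3:**
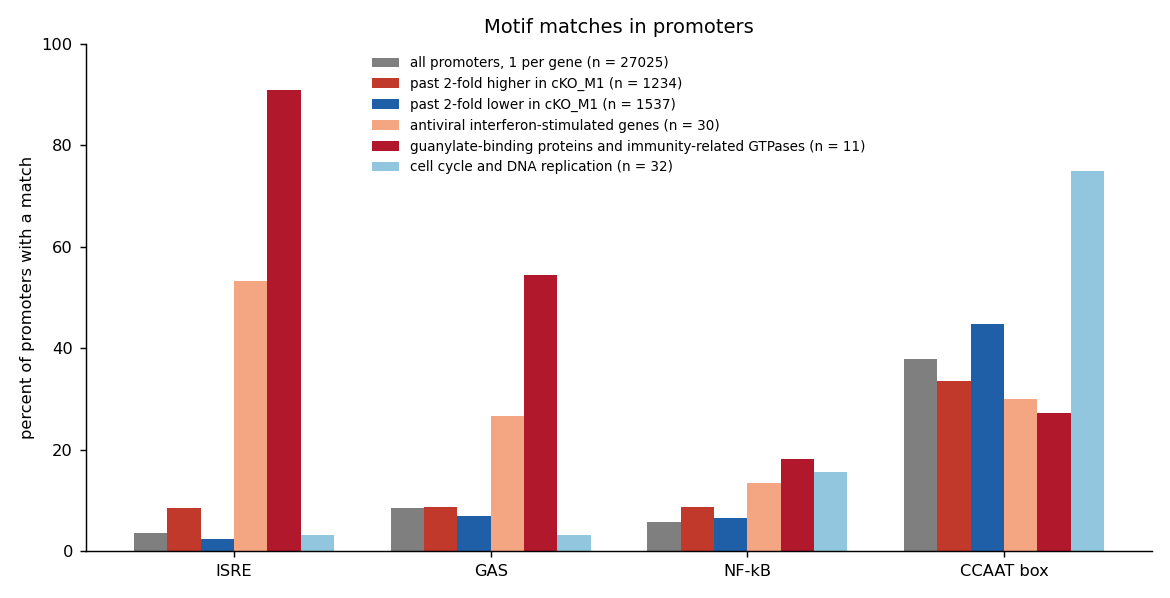
Percent of promoters with at least 1 match (vertical) to each of 4 motifs, as bars for 6 sets of genes, with the number of promoters in brackets. ISRE matches stand at 90.9% in the GBP and GTPase list and 53.3% in the antiviral list against 3.49% in all promoters, and CCAAT boxes at 75.0% in the cell cycle list against 37.9%.

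MHC class I and peptide loading genes rose in 22 of 23 cases (median 2.30). H2-K1 was at 1080.1, 1303 and 1346 CPM in cKO_M0 and 6676, 5863 and 5798 CPM in cKO_M1. The peptide transporter genes Tap1 (3.0) and Tap2 (2.95), the immunoproteasome subunit Psmb9 (1.90) and Nlrc5, the class I transactivator (2.56), rose with it. Class II genes moved less: 11 of 14 rose and 2 fell (median 0.68, or 0.14 with library totals). Cd74, the invariant chain, went from 430, 362 and 361 to 1174, 1311 and 1351 CPM. Ciita, the class II transactivator, had a log2 fold change of 0.52 (adjusted p = 0.0053) that became -0.02 with library totals. Of the costimulatory and adhesion ligands, 9 of 15 rose and 5 fell. Cd274 (PD-L1), an inhibitory ligand of T cells, went from 24.9, 28.2 and 26.6 CPM to 2673, 3017 and 3147 CPM, Cd40 (4.30) and Cd86 (4.52) rose, and Icosl fell (-2.13).

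Cytokine genes rose in 22 of 25 cases (median 3.54) and fell in 2. Il1b was at 0.174, 0.0782 and 0.117 CPM in cKO_M0 and 233, 211 and 167 CPM in cKO_M1 (10.65 ± 0.28 SE, adjusted p = 3.18e-14). Tnf rose from 29.8, 39.6 and 36.5 CPM to 443, 421 and 367 CPM. On the length-scaled scale Tnf was already at 88.8 in cKO_M0, where Il1b was at 0.265. Il6 reached 12.1, 7.91 and 4.75 CPM and Il12b, a subunit of interleukins 12 and 23 listed at 0 in all but one cKO_M0 library, 7.77, 5.84 and 7.47 CPM. Il1rn, the interleukin-1 receptor antagonist, rose from 38.4, 41.8 and 50.4 CPM to 2748, 2711 and 2682 CPM. Il10, an anti-inflammatory cytokine whose groups overlapped, had a log2 fold change of 0.63 (adjusted p = 0.0128) that missed the threshold without cKO_M0 replicate 1 (adjusted p = 0.0605), without cKO_M1 replicate 7 (0.0798) and with library totals (0.712).

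Of the chemokines, 16 of 22 rose and 5 fell (median 2.92). The CXCR3 ligands Cxcl9, Cxcl10 and Cxcl11 all rose; Cxcl10 was at 20.6, 55.1 and 47.8 CPM and then 1770.2, 1833 and 1313 CPM. The monocyte attractants Ccl2 (4.01), Ccl12 (4.70) and Ccl8 (10.02) rose too. Ccl6 (-1.73), Ccl9 (-1.37) and Cx3cl1 (-3.05) were lower. Among receptors for such signals, the formyl peptide receptor Fpr1 went from 0.697, 0.743 and 0.821 CPM to 388, 416 and 324 CPM and Fpr2 from 0.716, 0.918 and 0.743 to 258, 269 and 246 CPM. Ccr2, the receptor for Ccl2, fell from 16.2, 15.9 and 16.2 to 1.64, 2.1 and 1.95 CPM, and Cx3cr1, the fractalkine receptor, from 69.5, 110 and 87.6 to 0.227, 0.227 and 0.17 CPM (-8.72 ± 0.27 SE).

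Of the receptors and proximal signalling genes, 23 of 30 rose and 4 fell (median 1.11). Tlr4 itself moved little, from 92.2, 108 and 103 CPM to 124, 126 and 123 CPM (adjusted p = 0.0136, or 0.0667 without cKO_M0 replicate 1), and its log2 fold change of 0.30 turned to -0.24 with library totals. The kinases Ripk2 (2.83) and Tbk1 (1.47) rose, and so did Irak3, which dampens Toll-like receptor signals (2.32). Of the NF-kB subunits and IkB proteins, 13 of 14 rose and none fell (median 1.45), although 9 rose and 2 fell with library totals. The inhibitors Nfkbia (2.68), Nfkbie (2.49) and Nfkbib (2.23) rose, the subunit Nfkb2 went from 48.9, 65.4 and 60.8 to 220, 238 and 233 CPM, and Nfkb1 had a log2 fold change of 0.68 that no longer passed with library totals (0.14, adjusted p = 0.113).

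Inhibitors that feed back on these pathways were among the steep responses. Socs3, which blocks cytokine receptor signalling, went from 5.09, 4.36 and 4.14 CPM to 730, 720 and 696 CPM (7.30 ± 0.11 SE, adjusted p = 4.78e-16). Socs1 went from 2.17, 3.42 and 4.07 to 316, 323 and 249 CPM. Neither overlapped between states, and of the feedback inhibitors and mRNA decay factors 19 of 26 rose and 3 fell (median 2.16). Tnfaip3 (A20, 3.49), Dusp1 (2.88) and Zfp36 (tristetraprolin, 2.32) were among those that rose. Of AP-1, C/EBP and other early transcription factors, 18 of 28 rose and 7 fell, with Batf2 (5.28), Maff (4.15) and Cebpb (3.01) higher and Myc (-2.78) and Klf2 (-1.16) lower.

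Inflammasome and cell-death genes rose in 25 of 30 cases and fell in 4 (median 1.07). Casp1 went from 101, 101 and 105 to 491, 506 and 426 CPM, Nlrp3 from 55.8, 65 and 51.7 to 194, 201 and 200 CPM, and Mlkl, the effector of necroptosis, rose (2.59). Pycard, the inflammasome adaptor ASC, fell (-1.22). Complement genes rose in 13 of 15 cases (median 1.69). C3 went from 60, 88.1 and 64.3 CPM to 5283, 5967 and 5550.3 CPM and Cfb, factor B, rose (8.35).

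Of the lipid mediator genes 6 of 16 were higher and 8 lower (35.3% and 36.8% over all members). Ptgs2 (cyclooxygenase-2) went from 0.988, 1.84 and 1.5 CPM to 2543, 2729 and 2627 CPM and Ptges, the prostaglandin E synthase, from 1.49, 1.5 and 1.39 to 270, 256 and 256 CPM. Ptgs1 (cyclooxygenase-1) fell (-5.15), as did Hpgd, which degrades prostaglandins, from 13.8, 14 and 16 CPM to 0.0567, 0 and 0.113 CPM. Of the leukotriene genes, Alox5 (5-lipoxygenase) was at 46.3, 48.9 and 38.3 CPM in cKO_M0 and 0.17, 0.284 and 0.113 CPM in cKO_M1, and Ltc4s fell as well (-4.57).

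Glycolysis and hypoxia genes rose in 24 of 28 cases (median 1.43), and in 22 with library totals. Hk3, a hexokinase, went from 287, 278 and 269 to 2968, 2965 and 2974 CPM, Pfkfb3, a driver of glycolytic flux, from 20.4, 24.4 and 22 to 766, 835 and 923 CPM, and the glucose transporter Slc2a1 from 34.9, 49.1 and 41.6 to 342, 363 and 365 CPM. Genes of the tricarboxylic acid cycle and oxidative phosphorylation had a median of 0.10 (14 of 33 higher and 8 lower), which turned to -0.44 with library totals (5 and 24) and to -0.03 with upper-quartile factors. Within that list the isocitrate dehydrogenases Idh1 (-1.58) and Idh2 (-2.77) and Suclg2 (-2.42) fell and Sdhb (0.94) and Cox5a (0.97) rose.

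Of the iron handling genes, 9 of 13 rose and 2 fell. Hmox1, heme oxygenase, was at 351, 363 and 349 CPM in cKO_M0 and 3821, 3778 and 3844 CPM in cKO_M1, Lcn2, which binds bacterial iron carriers, rose (9.24), and Tfrc, the transferrin receptor, fell from 133, 134 and 147 to 39.7, 38.8 and 44.1 CPM. Among NADPH oxidase and antioxidant genes 15 of 20 rose and 3 fell, with Sod2 (4.71), the cystine transporter Slc7a11 (6.12) and the oxidase subunit Cybb (2.25) higher.

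Genes of cholesterol synthesis and sterol handling were lower in 16 of 24 cases and higher in 5 (median -0.97). Idi1, an enzyme of isoprenoid synthesis, was at 24.7, 20.8 and 24.8 CPM and then 0.822, 1.02 and 1.02 CPM, and the squalene epoxidase Sqle fell (-3.17). The genes that rose were Ch25h, which makes 25-hydroxycholesterol (3.77), Nr1h3, the sterol-sensing receptor LXR-alpha (3.27), Mylip (1.26), and the exporters Abcg1 (1.01) and Abca1 (0.95).

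The cell cycle list had the lowest median of the 33 pathway lists, -4.99: 39 of 42 genes fell, 2 rose and 1 did not pass. The list went from 0.747% ± 0.0313 of the counts in cKO_M0 to 0.0744% ± 0.00125 in cKO_M1 (SD, n = 3). Top2a, a topoisomerase of dividing cells, was at 509, 569 and 491 CPM and then 7.35, 9.9 and 9.76 CPM, the mitotic cyclin Ccnb2 at 171, 151 and 164 and then 0.624, 0.851 and 1.05 CPM, and Mki67 at 532, 584 and 487 and then 15.5, 21.9 and 30.2 CPM. The 2 that rose were the cyclins Ccnd2 (3.13) and Ccne1 (1.34). A CCAAT box was present in 24 of 32 promoters of the list, in 44.8% of those past 2-fold lower, in 39.2% of those of the members and in 37.9% of all promoters. The 250 bases before the Ccnb2 start (chr9:70421555-70421804, minus strand, RefSeq build GRCm38.p6) are shown since they hold 3 such boxes, in capitals, starting at -87, -54 and -21.
Ccnb2: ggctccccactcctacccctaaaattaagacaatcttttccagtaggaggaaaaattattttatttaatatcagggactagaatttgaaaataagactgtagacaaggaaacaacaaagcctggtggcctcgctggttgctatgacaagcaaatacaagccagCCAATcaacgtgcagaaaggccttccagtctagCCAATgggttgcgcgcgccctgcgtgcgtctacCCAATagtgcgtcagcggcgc

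Of the 12 growth-arrest genes 6 were higher and 5 lower. Gadd45b rose (2.21) and Cdkn1a went from 278, 351 and 323 to 555, 529 and 462 CPM, which no longer passed with library totals (log2 fold change 0.16, adjusted p = 0.189), while Cdkn2c fell (-5.98). All 23 cytosolic ribosomal protein genes on the list fell (median -0.95), as they did with library totals and upper-quartile factors, and 22 with DESeq2. Leaving out cKO_M0 replicate 1 or 3, or cKO_M1 replicate 8 or 9, gave 21 that passed as lower. Rpl3 went from 806, 709 and 821 to 209, 181 and 188 CPM. Splicing regulators fell in 32 of 49 cases and rose in 7 (median -0.43), with Hnrnph1 (-1.81), Hnrnpa1 (-1.67) and Srsf3 (-1.06) lower.

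Of the 20 alternative activation genes 7 were higher, near the share of 35.3% over all members, and 11 lower (36.8% over all members; median -0.84). Mrc1, the mannose receptor CD206, fell from 968, 807 and 711 CPM to 8.14, 10.2 and 13.2 CPM (-6.30 ± 0.20 SE), and Igf1 (-2.87), Pparg (-1.22) and Cd163 (-4.42) were lower too. Besides Arg1, Il4ra (3.25) and Tgm2 (3.97) rose. Among phagocytic and Fc receptors, Marco was at 1.37, 1.91 and 2.09 CPM and then 1916, 1839.6 and 1459 CPM, and Fcgr4 (3.91) and Mertk (3.36) rose, whereas Trem2 (-2.71), Scarb1 (-2.12) and Itgb5 (-2.40) fell; the median of this list, 0.32, became -0.21 with library totals. Lysosome genes rose in 24 of 35 cases and fell in 8 (median 0.51, or -0.03 with library totals). Ctsh (3.48) and Ctsc (2.99) rose, while Ctsd and Lamp1, at 0.40 and 0.41, turned to -0.14 and -0.13 with library totals.

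Of the 19 general macrophage genes 6 were higher and 7 lower, near the 35.3% and 36.8% over all members (median 0.05, or -0.49 with library totals and -0.08 with upper-quartile factors). Adgre1 (F4/80) rose from 2011, 2243 and 2136 to 4594, 5034 and 4495 CPM and Itgam (CD11b) rose too (1.51), while Lyz2 fell from 10689.8, 8793 and 9917 to 6098, 5223 and 4326 CPM and the transcription factor Mef2c fell (-4.35). Csf1r, the receptor for the growth factor of these cultures, did not pass (1975 to 2174 and 1672 to 2019 CPM, adjusted p = 0.13), but was lower with library totals (-0.69) and upper-quartile factors (-0.28). Matrix proteases and their inhibitors rose in 13 of 19 cases, with Mmp14 going from 5.52, 2.7 and 3.09 to 441, 475 and 555 CPM, and the inhibitor Timp2 fell (-2.31). RANK signalling and osteoclast genes rose in 7 of 13 cases and fell in 5 (35.3% and 36.8% over all members), and their median of 0.52 became -0.02 with library totals.

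Markers of other cells moved with stimulation as well. The B and plasma cell list, of which 2 of 9 genes were members, summed to 32.8 to 62.4 CPM in cKO_M0, most of it Ighm, and to 0.482 to 0.794 CPM in cKO_M1. The neutrophil list, with 3 of 11 genes as members, went from 24.5 to 31.8 CPM to 240 to 280 CPM, of which Csf3r, a receptor that macrophages can also express, made up 22.8 to 29.4 and 224 to 273 CPM. S100a8 and S100a9 encode the subunits of the calcium-binding complex calprotectin. S100a8 rose from 0.639, 0.391 and 0.45 CPM to 15.6, 10.6 and 7.24 CPM. S100a9 was at 0.542, 0.234 and 0.391 CPM and then 0.227, 0.0567 and 0.0566 CPM and did not pass (adjusted p = 0.0586), though it passed as lower with library totals (adjusted p = 0.0153), among other alternatives. The granule genes Mpo, Elane and Ngp were at most 0.523, 0.117 and 0.387 CPM in cKO_M0 and 0.0284, 0 and 0.0567 CPM in cKO_M1. The stromal list went from 2.5 to 3.04 CPM to 17.5 to 20.4 CPM, of which Pecam1 made up 0.743 to 1.05 and 13.2 to 15.7 CPM. Of its 4 members 3 rose and 1 fell. Dcn, one that rose, went from 0 in every cKO_M0 library to 1.25, 1.08 and 0.849 CPM in cKO_M1. Markers of T and NK cells went from 8.99 to 10.7 CPM to 5.61 to 7.04 CPM. Most of that sum was Cd4, at 8.66 to 10.2 and then 5.16 to 6.37 CPM. The other member, Lck, was at 0.0387 to 0.274 and then 0.284 to 0.566 CPM and did not pass. Erythroid markers summed to at most 0.34 CPM. Those of mast cells, basophils and eosinophils went from 5.45 to 8.97 CPM to 0.709 to 1.33 CPM. Megakaryocyte markers went from 47.0 to 62.5 CPM to 30.7 to 43.1 CPM, of which Vwf made up 42.6 to 52.0 and 24.8 to 37.3 CPM. The dendritic cell sum fell from 39.0 to 52.7 CPM to 26.5 to 35.2 CPM, although 4 of its 6 members rose and 1 fell. The 1 that fell, Itgax, held most of that sum. The part of such cells in the results was not tested.

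**Figure D4:**
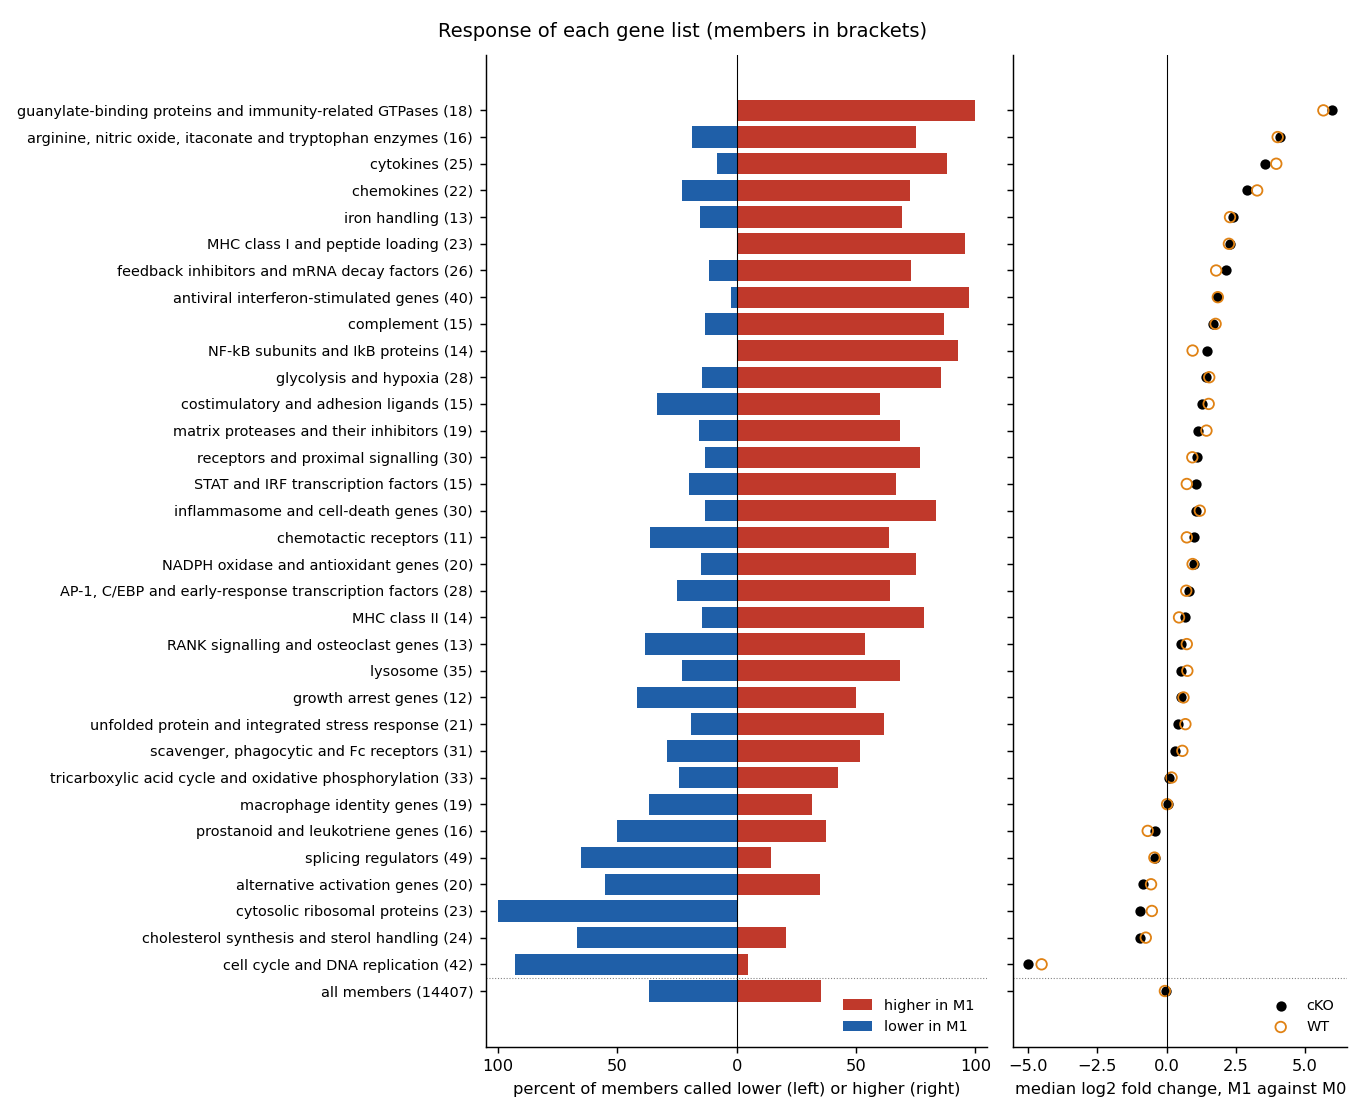
Left, the percent of the members of each pathway list called higher (red bars) or lower (blue bars) in cKO_M1, with the number of members in brackets; right, the median log2 fold change in cKO (filled points) and WT (open points). The GBP and GTPase list has the highest median in cKO, 5.98, and the cell cycle list the lowest, -4.99.

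Set beside WT, the cKO response had the same outline. In the same 14407 genes 10494 (72.8%) passed between WT_M1 and WT_M0, 5030 (34.9%) higher and 5464 (37.9%) lower, and 4117 (28.6%) passed the 2-fold margin, 1830 (12.7%) higher and 2287 (15.9%) lower. Past 2-fold, 1499 genes were higher in both genotypes, which is 83.6% of those higher in cKO and 81.9% of those higher in WT, and 1819 were lower in both (84.2% and 79.5%). Across genes, which are not independent replicates, the log2 fold changes had a Pearson correlation of 0.943. The test of the difference between the responses passed for 1304 genes (9.05%), with the cKO value above the WT value in 673 (4.67%) and below it in 631 (4.38%). Tested against the 2-fold margin, the difference passed for 0 genes above and 0 below, so no difference is established as past 2-fold. Genes called in opposite directions numbered 60. Of the 673 genes, 419 were called lower in WT, and of the 631, 279 were called lower in cKO. A value above or below that of WT is therefore not a size of response. The count of differing responses rested on single libraries: leaving out 1 of the 12 in turn gave 256 to 744 above and 326 to 876 below. The lowest counts came without cKO_M1 replicate 8 (256 and 344) and without WT_M0 replicate 6 (287 and 326).

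**Figure D5:**
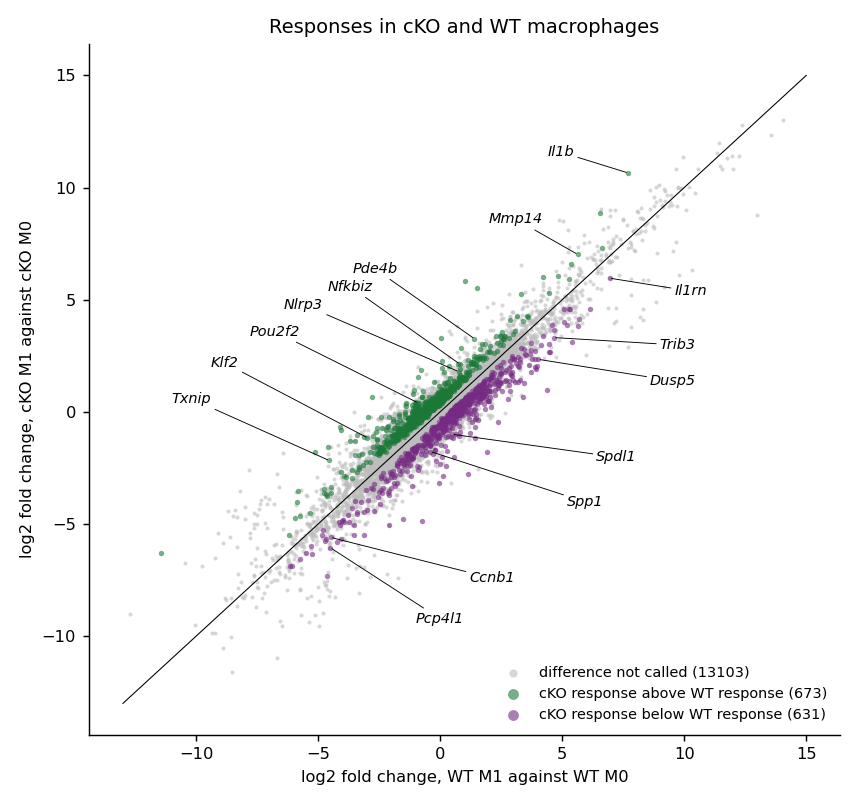
Log2 fold change in cKO (vertical) against that in WT (horizontal), 1 point per gene for 14407 genes, with the line of equal response. The test of the difference passed for 673 genes with a higher value in cKO (green) and 631 with a lower one (purple); Il1b stands at 10.65 in cKO against 7.70 in WT.

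Among the genes whose value was above that in WT were members of the NF-kB and Toll-like receptor lists. Of the 14 NF-kB members, 5 had a higher value in cKO and none a lower one (median difference 0.29). Of the 30 receptor and signalling genes 8 had a higher and 1 a lower one (4.67% and 4.38% over all members). Among the 8, Cd14 (-0.30 in cKO and -0.93 in WT) and Tlr2 (-1.05 and -1.82) were negative in both genotypes. Tirap (0.28 and -0.39) did not pass in cKO. The others, Tlr1, Tlr6, Myd88, Irak3 and Ikbke, were positive in both. Nfkbiz rose by 2.13 in cKO and 0.80 in WT (difference 1.33 ± 0.20 SE, adjusted p = 0.00194). Nfkbie rose by 2.49 and 1.57 (adjusted p = 0.00253), Irak3 by 2.32 and 1.51 (adjusted p = 0.00224), and Nlrp3 by 1.79 and 0.76 (adjusted p = 0.000831). Il1b had the largest called difference of any gene on the pathway lists, 2.95 ± 0.53 (SE, adjusted p = 0.00466), with 167 to 233 CPM in cKO_M1 against a mean of 69.3 CPM in WT_M1, and means of 0.123 and 0.329 CPM in M0. Il1b was thus near the floor in M0, and its lower M0 mean in cKO is part of the difference. Its antagonist Il1rn went the other way, 5.96 against 6.94 (difference -0.97 ± 0.16 SE, adjusted p = 0.00283).

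Several genes with the smallest p of the difference had a higher value in cKO. Klf2, a transcription factor that restrains myeloid activation, had log2 fold changes of -1.16 in cKO and -2.98 in WT (difference 1.82 ± 0.17 SE, adjusted p = 0.000171), with 17, 18.1 and 16.7 CPM in cKO_M1 against a mean of 5.39 CPM in WT_M1. Txnip, an inhibitor of glucose uptake, fell by 2.17 and by 4.55 (difference 2.37, adjusted p = 0.00082), and Cebpd fell by 1.08 and by 2.74 (difference 1.66). Pou2f2 had a log2 fold change of 0.40 in cKO, which was -0.14 with library totals, and -0.91 in WT (difference 1.32, adjusted p = 0.000735). The phosphodiesterase Pde4b rose by 3.26 and 1.40 (difference 1.87, adjusted p = 0.00082).

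In the other direction, Spp1, osteopontin, gave the smallest p. It fell from 1072, 1104 and 1212 CPM to 343, 315 and 337 CPM in cKO (-1.77) against -0.40 in WT (difference -1.37 ± 0.12 SE, adjusted p = 7.54e-05). Spdl1, a mitotic spindle gene, had log2 fold changes of -1.0 in cKO and 0.49 in WT (difference -1.49 ± 0.16 SE, adjusted p = 0.000493). The cell cycle list had 9 of 42 members with a value below that in WT and none above (4.38% and 4.67% over all members, shares that stand beside the following counts too). Among the 9 were Ccnb1 (difference -1.13) and Mki67 (-1.17). The unfolded protein and integrated stress response list, of which 13 of 21 rose and 4 fell in cKO (median 0.42, or -0.12 with library totals), had 9 below and none above (median difference -0.40). They included Trib3 (3.31 in cKO and 4.66 in WT), Ddit3, the stress factor CHOP (2.96 and 4.12), Atf4 (1.70 and 2.49) and the serine synthesis gene Phgdh (-2.59 and -0.92). Of the 12 growth arrest genes 4 had a lower value in cKO and 2 a higher one, and of the 26 feedback inhibitors 5 and 5. Gadd45g (1.44 and 2.97) and Gadd45b (2.21 and 3.29) and the phosphatase gene Dusp5 (2.34 and 4.02) rose less in cKO, while the antiproliferative gene Btg2 (0.32, or -0.22 with library totals, and -1.15) and Dusp6 (-1.19 and -2.57) had a higher value in cKO. For the GBPs and GTPases, the antiviral genes and MHC class I edgeR's test of the difference passed for 0 of 18, 40 and 23 members, with median differences of 0.26, -0.17 and 0.00. At an unadjusted p under 0.05 the counts were 2, 4 and 3, DESeq2 called 1, 0 and 1, and limma-voom 0 in each. Over all 14407 members edgeR called 1304 (9.05%), and 3554 had an unadjusted p under 0.05. DESeq2 called 1906 of them and limma-voom 1258. Whether these short lists depart from those shares was not tested.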

How the data were processed

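RNA from 12 libraries of mouse macrophages was analysed, 3 per group by the labels. The authors deposited whole-number read counts per gene. Trimmomatic 0.39, HISAT2 2.2.1, SAMtools 1.16.1, featureCounts 2.0.3 and build GRCm39 are named per the submitters' processing notes; the sources used here give no strand option, treatment of multi-mapped reads or annotation release. Of the values from 1 to 10, 60.9% were even, so halved counts were an alternative.

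Genes with at least 10 counts in at least 3 of the 6 cKO libraries went into edgeR 4.0.16 (R 4.3.3; TMM, 1 mean per group, all 12 libraries, quasi-likelihood F-test, glmTreat for the 2-fold margin, Benjamini-Hochberg, threshold 0.05). Library totals ranged from 41721452 to 42197986. Replicate pairs all differed by more than sampling noise. In simulated data on 14407 genes, 100 genes were given 2-fold and 100 were given 4-fold changes, equally up and down and only in well-counted genes. For the cKO response 99% and 100% of them were recovered, with 13 false calls. For the difference 84% and 98% were recovered. With so few and balanced changes the simulation cannot speak to the dependence on scaling or to genes with low counts. Alternatives were other scalings, DESeq2 1.42.0, limma 3.58.1 (voom), other filters, halved counts, the 6 libraries of a comparison alone and each library left out.

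The members and the 33 pathway and 9 marker lists were chosen with earlier results of these data known. Named genes were the 15 with the largest change each way with at least 5 CPM and no overlap, preset and smallest-p members of each list, the most abundant genes, and the 10 smallest p each way for the difference; a few further list members were named after their values were seen, and some genes the rule would name are not reported here. Gene symbols were paired with 52073 of the 56980 IDs.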

Additional observations from a re-analysis of the deposited data

Results flagged for a closer look

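A test of the difference between the cKO and the WT response passed for 45 of the genes named above, which is what brings them here. Values are log2 fold change in cKO minus that in WT. Over all 14407 genes 9.05% passed, and 0 passed when the difference was tested against the 2-fold margin. The cKO value was higher in Il1b (2.95), Txnip (2.37), Pde4b (1.87), Klf2 (1.82), Cebpd (1.66), Btg2 (1.46), Mmp14 (1.39), Dusp6 (1.38), Nfkbiz (1.33), Pou2f2 (1.32), Kynu (1.23), Nlrp3 (1.02), Nfkbie (0.93), Mertk (0.89), Batf2 (0.84), Irak3 (0.81), Socs3 (0.68), Cd74 (0.66), Il4ra (0.65), Nfkb1 (0.61), Ctsc (0.55) and Csf1r (0.50). It was lower in Ighm (-2.68), Dusp5 (-1.67), Phgdh (-1.67), Gadd45g (-1.53), Spdl1 (-1.49), Spp1 (-1.37), Trib3 (-1.35), Odc1 (-1.19), Mki67 (-1.17), Ddit3 (-1.16), Myc (-1.14), Ccnb1 (-1.13), Ccne1 (-1.09), Gadd45b (-1.08), Ccl9 (-1.03), Il1rn (-0.97), Mrc1 (-0.82), Atf4 (-0.79), Mylip (-0.79), Rpl3 (-0.69), Zc3h12c (-0.61), Hnrnpa1 (-0.54) and Ripk2 (-0.50). Ighm is an immunoglobulin gene of B cells. It was at 48.3, 30.7 and 31.8 CPM in cKO_M0 and 0.0567, 0.397 and 0.226 CPM in cKO_M1. In WT it fell too, from 57.3, 46.3 and 56.2 CPM in WT_M0 to 1.32, 2.2 and 2.82 CPM in WT_M1. The cKO_M1 values of Ighm rest on 2, 14 and 8 counts, near the floor. The difference passed under every alternative for 33 of these 45 genes. For Cd74, Csf1r, Ctsc, Hnrnpa1, Il4ra, Kynu, Mrc1, Myc, Mylip, Ripk2, Rpl3 and Zc3h12c it missed the threshold when single libraries were left out, and for Rpl3 also with library totals.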

How the results depend on the processing

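Library totals in place of TMM changed the cKO response to 2702 genes higher and 8497 lower (5081 and 5303 with TMM), the response past 2-fold to 1129 and 3754 (1794 and 2160) and the WT response to 2657 and 8763 (5030 and 5464); the counts of the 3 responses stayed within 1.5 times under the other alternatives run. The genes with the cKO value below the WT value numbered 631 of 14407, and 1002 with DESeq2 on the same genes. Without a filter on low counts they numbered 1186, but there 27501 genes were tested. Leaving out 1 library at a time gave 256 to 744 genes with the cKO value above the WT value (673 with all libraries) and 326 to 876 with it below. The number above fell to 442, 307, 256, 433, 287 and 342 without cKO_M0 replicate 1, cKO_M0 replicate 3, cKO_M1 replicate 8, WT_M0 replicate 4, WT_M0 replicate 6 and WT_M1 replicate 11. The number below fell to 352, 344, 408 and 326 without cKO_M0 replicate 3, cKO_M1 replicate 8, WT_M0 replicate 4 and WT_M0 replicate 6. With library totals these log2 fold changes reversed: Btg2 (-0.22), Ciita (-0.02), Ctsd (-0.14), Lamp1 (-0.13), Pou2f2 (-0.14), Tlr4 (-0.24), Tnfrsf11a (-0.16) and Zc3h12d (-0.18). With the same scaling Cdkn1a (0.16), Il10 (0.09), Nfkb1 (0.14) and Odc1 (0.15) kept their direction but no longer passed. Of 185 named genes called in the cKO response, 175 kept their call under every alternative. The causes of these shifts were not tested. No paired analysis was run, because the labels state no pairing and the replicate numbers 1 to 12 all differ between groups. If M0 and M1 libraries share animals, that pairing was ignored. With 3 libraries a group, an exact permutation p cannot go below 0.1.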
